A study of Danio rerio with 48 samples.

Results

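In zebrafish given nickel or chromium in their tank water for 24 h, 20 transcripts shifted the same way at every concentration of both metals and stayed close to their controls under cobalt. Of these, 7 were raised and 13 were lowered, out of 21903 transcripts on the array and 9416 that were bright enough to enter the choice. They were selected on measured values. For each exposed group, the difference is the mean log2 intensity of its 4 arrays minus that of the 4 control arrays of the same metal, after averaging the probes of each transcript. A transcript was chosen when this difference was at least 0.5 in size and of 1 sign in all 6 nickel and chromium groups and under 0.3 in size in all 3 cobalt groups. At least 1 group mean had to reach 6.5. On the linear scale these limits are 1.41-fold and 1.23-fold. Because the choice used every difference from control, those differences are described below without a test.

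Adult fish aged 6 to 9 months were kept in flow-through aquaria and exposed to no added metal or to a low, mid or high concentration of 1 metal. Nickel was measured in the water at 42.4, 51.0 and 64.0 mg/L in these 3 steps. Chromium was measured at 56.5, 69.9 and 80.6 mg/L, and cobalt at 39.7, 46.3 and 59.5 mg/L. Whole fish were ground, RNA was pooled, and each of the 12 groups was measured on 4 one-colour arrays. The nickel and chromium controls were the same 4 pools, hybridised once under each metal's name, whereas cobalt had its own 4 control arrays. The labels state no strain, sex, number of fish in a pool, metal salt or oxidation state of chromium. They also do not say whether the replicates of a group shared a tank, and the p-values below therefore cover only the variation among the pools and arrays at hand.

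Nickel, chromium and cobalt are transition metals that fish take up from water chiefly across the gill and the gut. Nickel and cobalt ions can both block the iron-dependent enzymes that mark the hypoxia-inducible factor for destruction, so both are used to imitate low oxygen in cultured cells. Chromium in its hexavalent form enters cells through anion carriers and is reduced inside them, which damages DNA and oxidises cell components. These are general properties of the metals and were not measured on the arrays.

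The transcripts carry Ensembl identifiers, and the gene tables used here hold none of the 20, so no gene name, role or sequence is given for any of them. For the same reason the whole-fish origin could not be checked against markers of organs. Every member is measured by 2 probes. Array medians lay between 5.62 and 5.66, and 66.2% to 68.5% of probes were above log2 5 on each array. That limit was used as the background, since 95 of 96 values of control spots that should be dark lay at or below it. The cobalt arrays stood apart from the others: 6 control rows named like spike-ins averaged 8.40 to 8.82 on cobalt arrays, 10.6 to 11.1 on nickel arrays and 10.6 to 11.2 on chromium arrays. Cobalt levels are therefore read against cobalt controls, and any level set across array sets is a description in which array set and metal cannot be told apart. In RNA from whole fish, fewer cells of a type and less RNA per cell cannot be told apart.

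The 20 are a small part of the transcripts that differed from control under both metals. All 6 nickel and chromium differences subtract the same 4 control pools, whereas the cobalt differences subtract other arrays. A deviation of those 4 pools would therefore shift all 6 differences alike and no cobalt difference. Its part in the choice was not tested. Regardless of cobalt, 273 transcripts were raised by at least 0.5 in all 6 nickel and chromium groups and 196 were lowered by as much. Of the 273 raised, 201 were also raised by 0.5 or more in every cobalt group, 7 stayed within 0.3, 4 moved at least 0.5 the other way and 61 fitted none of these. Of the 196 lowered, 66 were also lowered in every cobalt group, 13 stayed within 0.3, 0 moved the other way and 117 fitted none. The same limits applied to the other metal pairs gave 19 transcripts changed in nickel and cobalt but not chromium, and 17 changed in chromium and cobalt but not nickel. Over the 9416 transcripts the median difference lay between -0.03 and 0.07 in each of the 9 exposed groups.

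**Figure D1:**
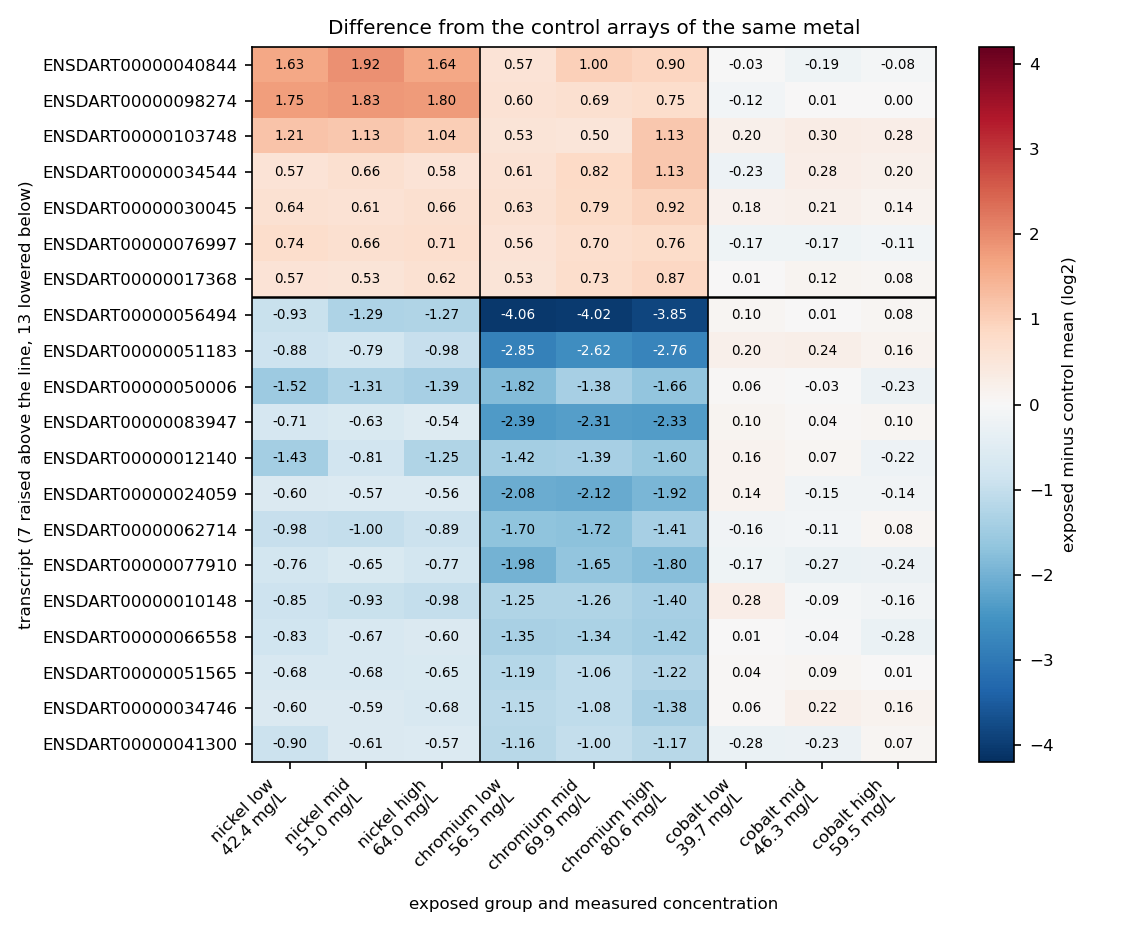
Difference of each exposed group from the controls of its metal (log2, colour and printed value) for the 20 transcripts, 7 raised above the line and 13 lowered below it, with the concentration under each group. Chromium differences reach -4.06 among the lowered transcripts, and all cobalt differences lie between -0.28 and 0.30.

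The raised transcripts had like median shifts under both metals when all probes were averaged. Averaged over the 3 concentrations, the nickel differences of the 7 had a median of 0.70 and ran from 0.58 to 1.80, or 1.49-fold to 3.47-fold. Their chromium differences had a median of 0.72 and a range of 0.67 to 0.85, or 1.60-fold to 1.81-fold. In 2 of the 7, ENSDART00000017368 and ENSDART00000030045, this average includes a probe at background. On the probes above background the 7 nickel differences ran from 0.60 to 1.80, with a median of 1.17, and the chromium differences from 0.67 to 1.47, with a median of 0.82. Their control levels spanned log2 6.00 to 12.9. The lowered transcripts differed more between metals: the nickel median of the 13 was -0.73, with a range of -1.41 to -0.58, and the chromium median was -1.61, with a range of -3.98 to -1.11. In fold terms these falls were 1.49-fold to 2.65-fold under nickel and 2.16-fold to 15.7-fold under chromium. Control levels of the lowered transcripts lay between 7.15 and 11.6. The spread between the 4 arrays of a group had a median SD of 0.18 (0.02 to 0.92) over the members' groups against 0.16 over all 9416.

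Single arrays mostly kept to their side of the controls. All 12 exposed nickel arrays lay above all 4 nickel controls for 7 of 7 raised transcripts, as they did for 9.51% of the 9416 transcripts. All 12 lay below the controls for 9 of 13 lowered transcripts, against 6.91% overall. With chromium the counts were 5 of 7 raised, against 11.4%, and 13 of 13 lowered, against 9.55%. The choice used these contrasts, so nothing is read from the counts beyond the spread of the arrays. With cobalt, the arrays lay above the controls for 1 of 7 raised transcripts, against 9.55% of the 9416, and below them for 0 of 13 lowered transcripts, against 7.58%. The limit on cobalt differences bounds both counts.

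The 2 highest-ranked raised transcripts, ordered by the mean of the 6 nickel and chromium differences, were ENSDART00000040844 and ENSDART00000098274. Array values below are log2 intensities of replicates 1 to 4, in that order. For ENSDART00000040844 the nickel arrays read 6.29, 6.84, 7.06 and 6.39 in controls, 8.77, 8.52, 8.26 and 7.56 at low, 8.37, 8.36, 8.60 and 8.92 at mid and 7.86, 8.41, 8.22 and 8.62 at high nickel. Its chromium arrays read 6.54, 7.04, 6.87 and 6.5 in controls, 7.33, 7.76, 7.20 and 6.93 at low, 7.82, 7.73, 8.01 and 7.39 at mid and 7.31, 7.75, 7.72 and 7.76 at high chromium. Every nickel-exposed array was above every nickel control, while 1 low-chromium array fell within the range of the chromium controls. Cobalt arrays read 6.00, 5.72, 5.69 and 6.08 in controls, 5.95, 5.86, 5.72 and 5.84 at low, 5.90, 5.63, 5.57 and 5.61 at mid and 6.07, 5.81, 5.96 and 5.33 at high cobalt. The cobalt groups overlapped one another and all sat below the nickel and chromium controls. The differences from control were 1.63, 1.92 and 1.64 (SE 0.24, n = 4 arrays per group) under low, mid and high nickel. They were 0.57, 1.00 and 0.90 (SE 0.18) under chromium and -0.03, -0.19 and -0.08 (SE 0.14) under cobalt. Its probes parted under cobalt, with differences of 0.27, 0.05 and 0.03 for the first and -0.33, -0.43 and -0.19 for the second.

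ENSDART00000098274 was the brightest member. On nickel arrays it read 12.95, 12.86, 12.97 and 12.84 in controls, 14.87, 14.74, 14.41 and 14.60 at low, 14.62, 14.63, 14.69 and 15.01 at mid and 14.74, 14.64, 14.72 and 14.74 at high nickel. On chromium arrays it read 12.83, 12.83, 12.98 and 12.94 in controls, 13.47, 13.54, 13.53 and 13.42 at low, 13.48, 13.63, 13.65 and 13.59 at mid and 13.68, 13.49, 13.58 and 13.83 at high chromium. Controls, chromium-exposed and nickel-exposed arrays formed 3 bands with gaps between them. On cobalt arrays it read 14.40, 14.51, 14.30 and 14.43 in controls, 14.21, 14.25, 14.19 and 14.50 at low, 14.37, 14.26, 14.64 and 14.41 at mid and 14.31, 14.34, 14.34 and 14.67 at high cobalt. All 16 cobalt arrays, unexposed fish included, were thus brighter than any chromium-exposed array. Differences from control were 1.75, 1.83 and 1.80 (SE 0.10) under nickel, 0.60, 0.69 and 0.75 (SE 0.07) under chromium and -0.12, 0.01 and 0.00 (SE 0.10) under cobalt.

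The 2 lowered transcripts with the most negative mean of the 6 differences were ENSDART00000056494 and ENSDART00000051183. ENSDART00000056494 read 7.87, 8.44, 9.24 and 9.98 in nickel controls, 8.20, 8.14, 8.57 and 6.89 at low, 7.98, 7.04, 7.5 and 7.86 at mid and 7.86, 7.99, 7.90 and 6.70 at high nickel. It read 8.48, 8.67, 9.20 and 10.12 in chromium controls, 5.06, 4.89, 5.15 and 5.14 at low, 5.11, 5.27, 5.05 and 4.96 at mid and 4.84, 4.98, 6.26 and 5.00 at high chromium. The same pools gave the same order on both sets of control arrays, and their range overlapped 6 of the 12 nickel-exposed arrays but no chromium-exposed array. In cobalt it read 7.28, 7.37, 7.96 and 7.66 in controls, 8.28, 7.01, 7.74 and 7.61 at low, 7.92, 6.72, 7.84 and 7.81 at mid and 7.83, 7.5, 7.12 and 8.14 at high cobalt, with no separation. The nickel differences were -0.93, -1.29 and -1.27 (SE 0.44), and the 95% interval at low nickel ran from -1.88 to 0.02. The chromium differences were -4.06, -4.02 and -3.85 (SE 0.32), the largest of any member. They are bounds in part, because 1 of its probes lay at or below the background limit on 4 low, 4 mid and 3 high arrays. With those probe values set to the limit, the level was lower by at least 14.8-fold, 14.8-fold and 13.3-fold at low, mid and high chromium.

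ENSDART00000051183 remained far above background throughout. Its nickel arrays read 11.64, 11.43, 11.61 and 11.78 in controls, 10.66, 10.54, 10.76 and 10.99 at low, 10.91, 10.94, 10.64 and 10.83 at mid and 10.195, 10.49, 11.05 and 10.82 at high nickel. Its chromium arrays read 11.50, 11.59, 11.67 and 11.71 in controls, 8.29, 8.77, 8.93 and 9.08 at low, 8.53, 9.47, 8.86 and 9.13 at mid and 8.96, 8.89, 9.04 and 8.53 at high chromium. Neither metal's exposed arrays overlapped its controls, and the lowest nickel-exposed array was above the highest chromium-exposed array. Its cobalt arrays read 11.16, 10.93, 11.04 and 11.50 in controls, 11.63, 11.27, 11.46 and 11.07 at low, 11.37, 11.21, 11.43 and 11.57 at mid and 11.45, 11.50, 11.23 and 11.08 at high cobalt. The cobalt arrays overlapped across all 4 groups. It was lower by 7.20-fold, 6.14-fold and 6.78-fold at low, mid and high chromium, while the nickel differences were -0.88, -0.79 and -0.98 (SE 0.15) and the cobalt differences 0.20, 0.24 and 0.16 (SE 0.14).

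**Figure D2:**
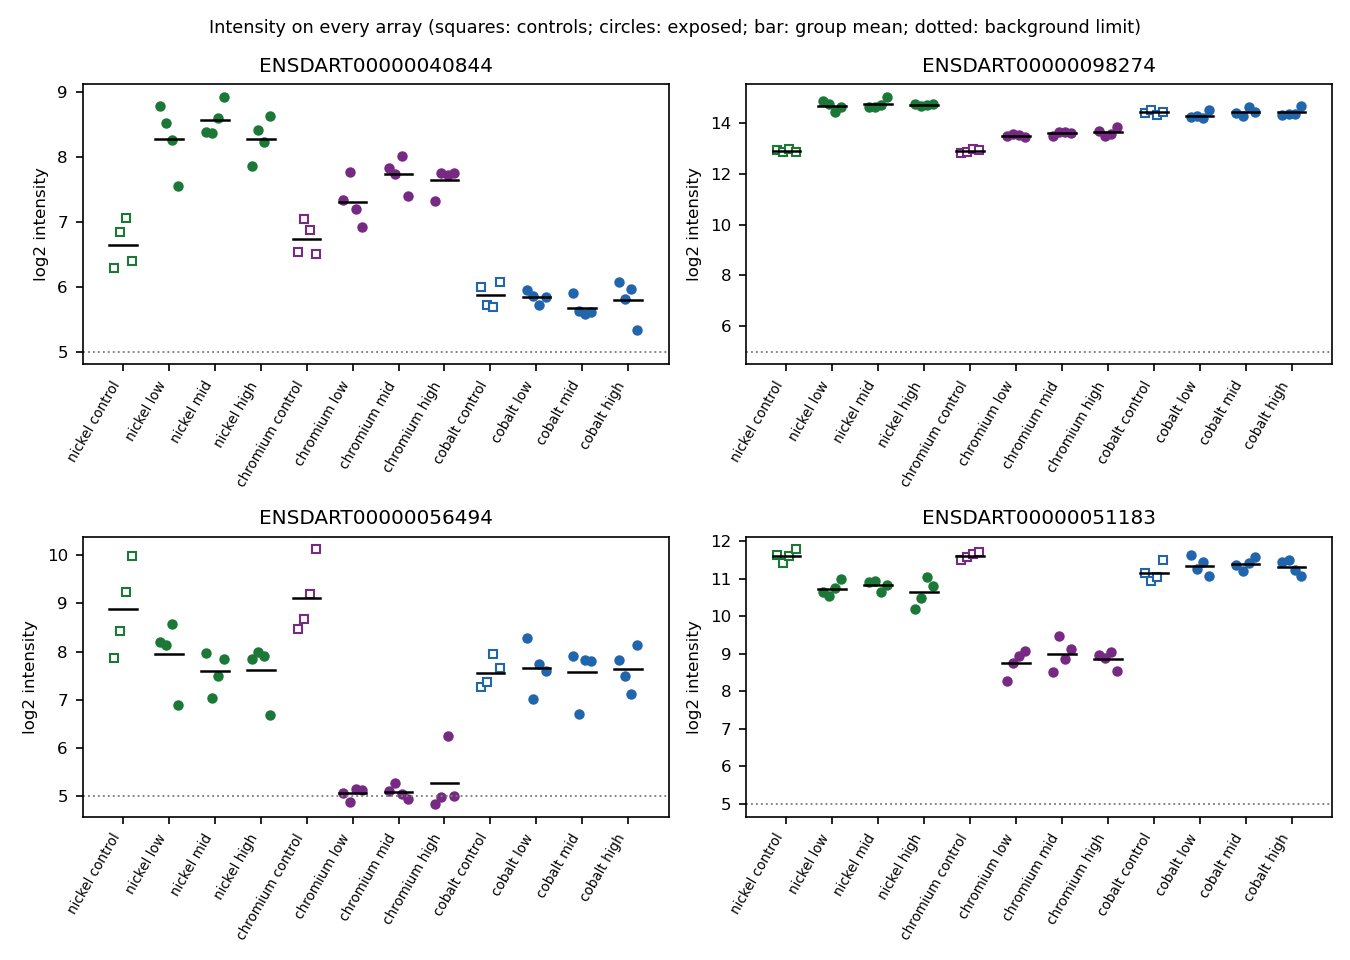
Log2 intensity on each of the 48 arrays for the 2 highest and 2 lowest transcripts by mean difference, with open squares for controls, circles for exposed groups, bars for group means and a dotted line at the background limit of 5. ENSDART00000056494 sits at that line in most chromium-exposed arrays, and ENSDART00000098274 reads 14.19 or more on all cobalt arrays.

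The sizes of the nickel and chromium effects were compared directly, since the choice did not fix which was larger. The exposed concentrations differed between the metals, so the comparison is of these exposures and not of equal doses. Averaged over 3 concentrations, the nickel difference minus the chromium difference was positive for 13 of 13 lowered transcripts. The mean fall was thus the larger under chromium in each, although only 9 of the 13 passed the test below. The median was 0.66 and the range 0.21 to 2.81. Among all 196 transcripts lowered by both metals, 169 (86.2%) also had the larger mean fall under chromium. In limma over all transcripts, with Benjamini-Hochberg adjustment, 11 members passed with a positive value, 9 lowered and 2 raised, whereas 3.87% of all transcripts did so. The fit took the nickel-labelled and chromium-labelled controls as independent arrays, although both come from the same 4 pools. At the high concentrations alone 8 members passed with a positive value, 7 lowered and 1 raised, against 3.26% of all transcripts. The members were chosen for large differences of both metals from control, and the test is built from the same differences, so nothing is read from these shares of all transcripts. Among all transcripts changed by both metals, 93 of 196 lowered (47.4%) and 24 of 273 raised (8.79%) passed with a positive value on the mean. At the high concentrations 79 of 196 (40.3%) and 12 of 273 (4.40%) did. With a negative value, 1 of 196 lowered (0.51%) and 18 of 273 raised (6.59%) passed at the high concentrations. On the mean, 2 of 196 (1.02%) and 12 of 273 (4.40%) passed with a negative value. No member passed with a negative value in either comparison, in which the averages of ENSDART00000017368 and ENSDART00000030045 include a probe at background. Of all 21903 transcripts, 379 did so at the high concentrations and 551 on the mean. Among the members, 1 at the high concentrations and 0 on the mean had a negative value with an unadjusted p under 0.05. Over all transcripts 7.41% and 8.90% did. Nothing is read from these counts either.

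ENSDART00000083947 had the smallest adjusted p among the members. It read 7.69, 7.59, 7.76 and 7.88 in nickel controls, 7.32, 7.17, 6.63 and 6.94 at low, 6.80, 7.30, 7.22 and 7.07 at mid and 7.38, 7.13, 7.05 and 7.16 at high nickel. With chromium it read 7.89, 8.0, 8.03 and 8.17 in controls, 5.53, 5.65, 5.69 and 5.66 at low, 5.66, 5.78, 5.61 and 5.79 at mid and 5.45, 5.53, 5.96 and 5.80 at high chromium. Both metals cleared their controls on every array, and the chromium-exposed arrays all lay under 6. Cobalt gave 7.23, 6.63, 7.37 and 7.24 in controls, 7.61, 6.94, 6.77 and 7.54 at low, 7.22, 7.02, 7.60 and 6.80 at mid and 7.14, 7.05, 7.40 and 7.27 at high cobalt, all overlapping. The nickel effect exceeded the chromium effect by 1.79 ± 0.17 (SE, limma adjusted p = 1.32e-07) at the high concentrations and by 1.71 ± 0.14 (adjusted p = 2.52e-09) on the mean, a positive value standing for the larger fall under chromium.

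Of the raised transcripts, ENSDART00000098274 and ENSDART00000040844 had the larger rise under nickel. For ENSDART00000098274 the nickel effect was larger by 1.06 ± 0.12 (SE, limma adjusted p = 9.54e-07) at the high concentrations and by 1.12 ± 0.10 (adjusted p = 6.58e-09) on the mean. ENSDART00000040844 passed on the mean only, at 0.91 ± 0.26 (limma adjusted p = 0.0300). Averaged over the 3 concentrations, the nickel effect was the larger in 4 of the 7 raised transcripts. Of all 273 raised by both metals, it was the larger on that mean in 133 (48.7%). At the high concentrations the nickel effect was the larger in 2 of the 7 and the chromium effect in 5, with a median of -0.09. On the mean, the 9 members that did not pass had differences of -0.25 to 0.49 with SEs of 0.11 to 0.21. They include 4 lowered transcripts, named here after their values were seen: ENSDART00000050006, ENSDART00000012140, ENSDART00000010148 and ENSDART00000051565. Of these, ENSDART00000050006 averaged 5.80 in nickel-exposed and 5.47 in chromium-exposed arrays. Both levels are close to the background limit of 5, so a larger difference between the metals may not have been measurable.

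**Figure D3:**
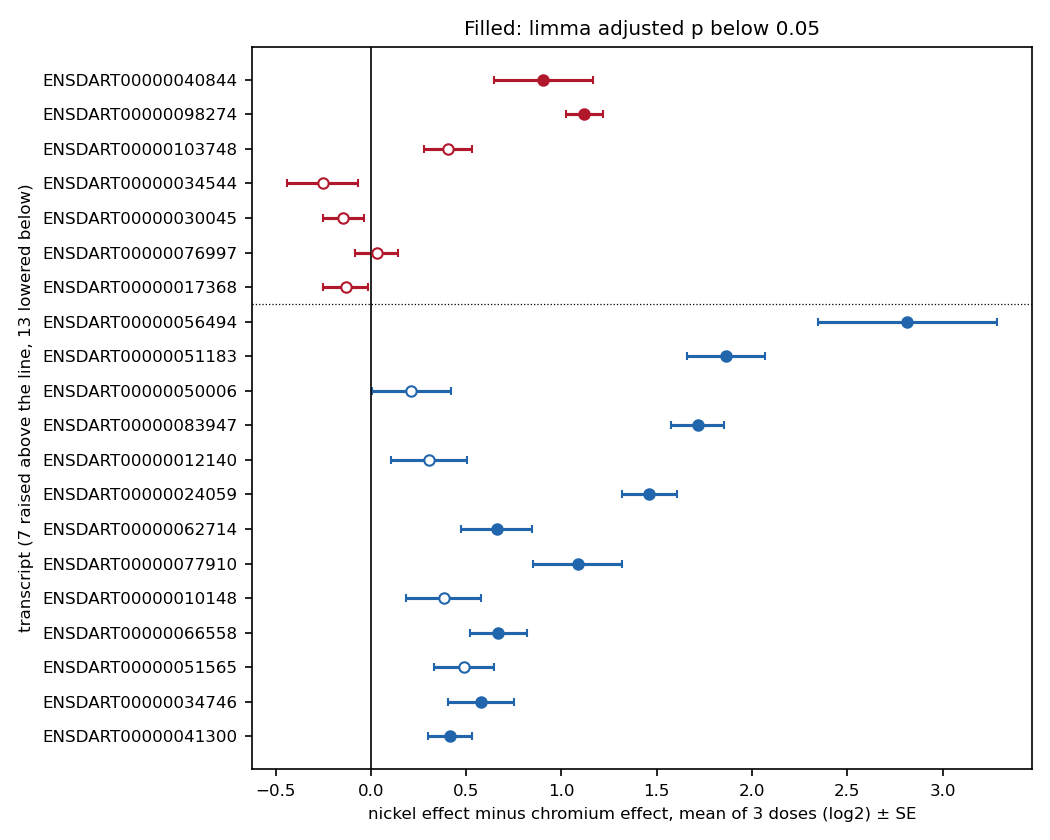
Nickel effect minus chromium effect, averaged over 3 concentrations (log2), for each of the 20 transcripts, with bars of 1 SE and filled points where the limma adjusted p was below 0.05. The 11 filled points all lie above 0, with 2 raised transcripts (red) at 0.91 and 1.12 and 9 lowered transcripts (blue) from 0.42 to 2.81. The averages of ENSDART00000017368 and ENSDART00000030045 include a probe at background.

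Differences between high and low concentration passed the adjusted test in 1 of the 20 members, under chromium. Between high and low nickel, 0 of the 20 transcripts passed in limma, and 2 had an unadjusted p under 0.05. Over all transcripts 0% passed, with 1682 (7.68%) at an unadjusted p under 0.05. The median high-minus-low nickel difference was 0.00 for raised and 0.04 for lowered members. With chromium, all 7 raised transcripts were higher at high than at low concentration, with a median difference of 0.33, and 1 of the 20 passed, against 0.507% of all transcripts. For ENSDART00000017368 and ENSDART00000030045 the tested averages, with differences of 0.34 and 0.29, include a probe at background. Their other probes differed from control by 1.09 and 1.19 at low and by 1.82 and 1.77 at high chromium. At an unadjusted p under 0.05 there were 6 of the 20, of which 5 were raised members that were higher at high chromium, against 11.5% of all transcripts in either direction and 6.06% for higher values. Among the 273 transcripts raised by both metals, 259 (94.9%) were likewise higher at high chromium, against 49.4% of all transcripts. The 13 lowered transcripts showed no common direction with chromium concentration: 7 were higher and 6 lower at high chromium, with a median of 0.06. Between high and low cobalt 0 members passed in limma, against 0.863% of all transcripts. At an unadjusted p under 0.05 there were 5 of 20, against 12.3%. The limit on cobalt differences also bounds that contrast.

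The member that passed for chromium concentration was ENSDART00000103748. It read 10.11, 10.04, 10.14 and 9.99 in chromium controls, 10.77, 10.76, 10.38 and 10.48 at low, 10.44, 10.47, 10.74 and 10.65 at mid and 11.33, 11.15, 11.01 and 11.34 at high chromium. On nickel arrays it read 10.05, 10.03, 10.204 and 10.15 in controls, 11.31, 11.39, 11.07 and 11.52 at low, 11.35, 10.93, 11.26 and 11.42 at mid and 11.19, 11.28, 10.89 and 11.24 at high nickel. High chromium stood above low and mid chromium without overlap, whereas the 3 nickel groups overlapped. The high-minus-low chromium difference was 0.61 ± 0.10 (SE, limma adjusted p = 0.022). The call was lost on leaving out low-chromium replicate 3, low-chromium replicate 4, high-chromium replicate 1 or high-chromium replicate 4, with adjusted p between 0.0629 and 0.0865. It was also lost when a slope on concentration was fitted in place of the high-minus-low difference (0.58 over the range from low to high, limma adjusted p = 0.171). In cobalt this transcript read 10.42, 10.31, 10.26 and 10.39 in controls, 10.54, 10.56, 10.50 and 10.59 at low, 10.52, 10.67, 10.82 and 10.55 at mid and 10.63, 10.73, 10.67 and 10.47 at high cobalt. It is the member whose 12 cobalt-exposed arrays all lay above the cobalt controls. The cobalt differences were 0.20, 0.30 and 0.28, with 95% intervals of 0.05 to 0.36, 0.15 to 0.45 and 0.13 to 0.44.

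How firmly cobalt can be called flat depends on the error of each difference. The 60 cobalt differences of the 20 members had SEs of 0.07 to 0.31, with a median of 0.14. Of their 95% intervals, 12 reached 0.5 in the direction of the nickel and chromium change, 2 of 21 among raised and 10 of 39 among lowered transcripts. For 14 of the 20 members no interval reached that far. Of the 60 intervals 53 held 0. Those that did not were all of ENSDART00000103748, mid cobalt of ENSDART00000030045, and high cobalt of ENSDART00000066558 and ENSDART00000050006. Low cobalt of ENSDART00000010148 was the other, against the nickel and chromium direction. These transcripts are named after their values were seen. All the intervals describe precision, since the differences themselves chose the transcripts. The 14 include ENSDART00000017368 and ENSDART00000030045, whose averages include a probe at background. Their other probes differed by 0.32, 0.59 and 0.57 and by 0.55, 0.64 and 0.46 under low, mid and high cobalt. ENSDART00000050006 is also among the 14, although its cobalt arrays all lay close to background, between 5.03 and 5.55. For ENSDART00000017368, ENSDART00000030045 and ENSDART00000050006 the intervals thus do not show a flat cobalt response.

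In 2 raised members, named after their values were seen, the cobalt value rested on averaging a dark probe with a bright one. Their dark probes, for ENSDART00000017368 and ENSDART00000030045, averaged 4.89 and 4.83 and lay at or below background on 38 and 43 of 48 arrays. The other probe of ENSDART00000017368 gave differences of 1.21, 1.11 and 1.2 under nickel, 1.09, 1.38 and 1.82 under chromium and 0.32, 0.59 and 0.57 under cobalt. The bright probe of ENSDART00000030045 gave 1.16, 1.2 and 1.24 under nickel, 1.19, 1.44 and 1.77 under chromium and 0.55, 0.64 and 0.46 under cobalt. On those probes both transcripts were higher under cobalt as well, by more than the limit of 0.3. With dark probes left out, a setting added after the values were seen, 19 transcripts met the limits, 18 of them among the 20, and these 2 were the ones lost. Over all members, both probes alone met every limit in 7 of 20, both met the nickel and chromium limit in 13, and both had the right direction throughout in 19. The gap between the probes in the mean cobalt difference had a median of 0.13 and reached 0.84.

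**Figure D4:**
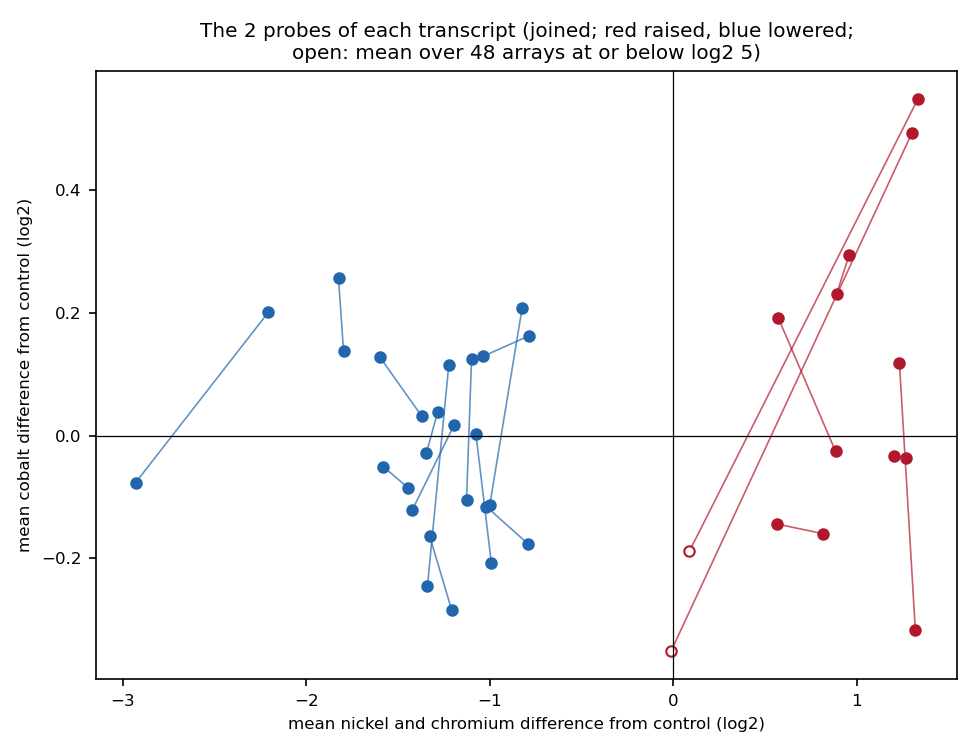
Mean cobalt difference against the mean of the nickel and chromium differences (log2) for each of the 40 probes, with the 2 probes of a transcript joined, raised transcripts in red and lowered in blue. The 2 open points are the dark probes, and their partners lie near 0.5 on the cobalt axis.

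The level from which cobalt started also differed from that of the other metals. For 13 of 13 lowered transcripts the cobalt control mean lay below the mean of the 8 nickel-labelled and chromium-labelled control arrays on the deposited scale, but for 0 of 13 when all arrays were scaled to the spike-in rows across array sets, a setting added after the values were seen. That scaling left 0.0637% of the 9416 transcripts lower in cobalt controls and moved their median difference to 2.27. With nearly all transcripts moved, nothing is read from the count of 0. Relative to this median the lowered members still had a median of -0.66 and the raised members 0.25. Quantile normalization, median centring and spike-in scaling within each metal left the counts at 13 of 13 and 6 of 7. Array medians already lay between 5.62 and 5.66, and scaling within each metal keeps the offset between array sets. These settings could thus move the counts little, and nothing is read from them. On the deposited scale the difference had a median of -0.65 and a range of -1.79 to -0.21. Across the 9416 transcripts 48.8% had the lower mean in cobalt controls, and among the 196 lowered by both metals 158 (80.6%) did, with a median of -0.39. All 4 cobalt controls lay below all 8 shared controls for 6 of 13 lowered transcripts, against 10.5% of the 9416 and 36.7% of the 196. For 6 of 7 raised transcripts the cobalt controls were the higher, with a median of 0.26, against 51.2% of the 9416 and 67.4% of the 273. All 4 lay above all 8 for 3 of 7, against 11.1% and 16.5%. On the deposited scale the unexposed cobalt fish of 19 of 20 members already read in the direction that nickel and chromium moved the transcript. With scaling across array sets, which raised nearly all transcripts in cobalt controls, this held for 7 members, all of them raised. The shared controls entered all 6 nickel and chromium differences and so the choice, and the array sets differ, so this was not tested. Its part in the small cobalt differences was not tested either.

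On the deposited scale, the mean of the cobalt controls lay past the mean of the nickel-exposed arrays in 4 lowered members. These were ENSDART00000056494, ENSDART00000050006, ENSDART00000034746 and ENSDART00000041300, the last 3 named after their values were seen. The cobalt control mean of ENSDART00000041300 was 7.60 (SD 0.08) against 7.63 under nickel. For ENSDART00000034746 it was 7.33 (SD 0.17) against 7.43, and for ENSDART00000056494 7.56 (SD 0.31) against 7.72. Each of these gaps was smaller than the SD of the cobalt controls. The count was not taken over all transcripts, and nothing is read from it. ENSDART00000050006 had a mean of 7.15 in the shared controls, 5.80 in nickel-exposed and 5.47 in chromium-exposed arrays. Its cobalt controls averaged 5.36 ± 0.16 (SD, n = 4), and all 16 cobalt arrays lay between 5.03 and 5.55. That is close to the background limit, so a fall by 1.31 to 1.52 on the log2 scale, the size seen under nickel, could not have been measured in cobalt. The 1 raised member whose cobalt controls were past the chromium-exposed mean was ENSDART00000098274. Its cobalt controls averaged 14.41, which is 1.51 above the shared controls at 12.90, above the chromium-exposed mean of 13.57 and below the nickel-exposed mean of 14.70. ENSDART00000040844 was the raised member with lower cobalt controls, by -0.82.

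**Figure D5:**
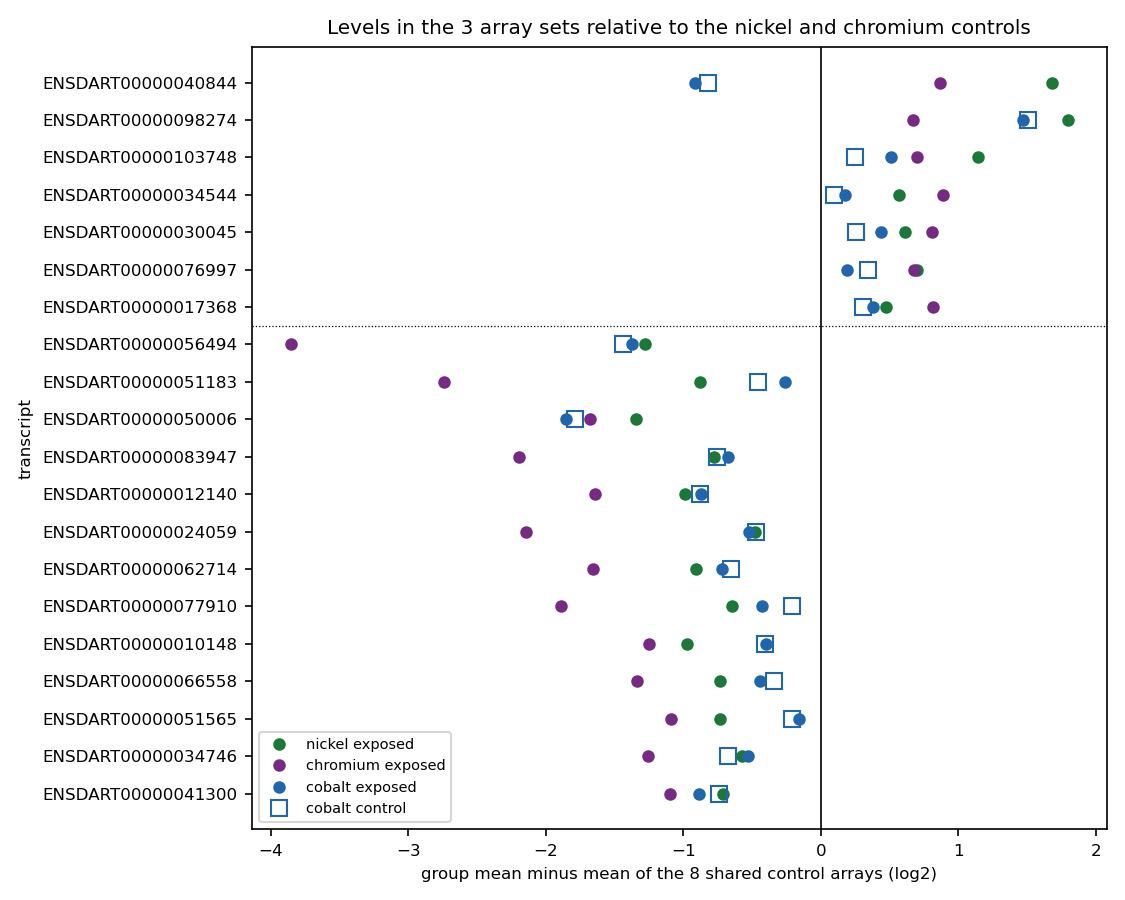
Mean log2 level of nickel-exposed, chromium-exposed and cobalt-exposed arrays and of the cobalt controls (open squares) for each transcript, relative to the mean of the 8 nickel-labelled and chromium-labelled control arrays at 0. On the deposited scale the cobalt controls lie left of 0 for all 13 lowered transcripts, or 0 of them with scaling to the spike-in rows across array sets, and right of 0 for 6 of the 7 raised ones.

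Because the nickel and chromium controls were the same pools, their 2 sets of arrays show how far array sets differ with no exposure. In limma with these arrays taken as independent, which leaves out the pairing by pool, 0 of the 20 members passed, against 0.539% of all transcripts. At an unadjusted p under 0.05 there were 4 of 20, against 12.0%. With the pool as a block 2 members passed, against 4.31% of all transcripts. These were ENSDART00000083947, lower on nickel-labelled arrays (-0.29 ± 0.06 SE, limma adjusted p = 0.0352), and ENSDART00000012140, higher on them (0.34 ± 0.05, adjusted p = 0.0225), the latter named after its values were seen. Both differences are under the limit of 0.5 that chose the members. They also enter the nickel effect minus the chromium effect, since each effect subtracts its own control arrays. On the mean of 3 concentrations that value was 0.30 for ENSDART00000012140, which its control difference makes smaller. It was 1.71 for ENSDART00000083947, which its control difference makes larger.

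Several members sat close to a limit. The smallest nickel or chromium difference inside was 0.50 in size among raised and 0.54 among lowered transcripts, and the nearest outside were 0.48 in both directions. The largest cobalt difference inside was 0.30 for raised and 0.28 for lowered members, and the nearest outside were 0.32 and 0.31. The dimmest member had a highest group mean of 6.98, and the brightest transcript left out for dimness reached 6.48. Leaving out each of the 48 arrays in turn gave 17 to 26 transcripts, and 5 of the 20 members, 2 raised and 3 lowered, were chosen in all 48 settings. ENSDART00000103748 was chosen in the fewest, 37. Without cobalt control replicate 4, 20 transcripts met the limits but 15 of them were among the reported members. Scaling the arrays to the 6 spike-in rows within each metal again gave 20, of which 5 were among the reported members. That scaling moved the median of all transcripts by up to 0.21 under nickel, 0.15 under chromium and 0.25 under cobalt. Under it 20 of 20 members kept their direction in all 6 nickel and chromium groups, 13 stayed past 0.5 and 9 stayed within the cobalt limit.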

How the data were processed

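Per the labels' protocols, whole frozen fish were ground, RNA was purified, and pooled RNA was labelled with Cy3 for one-colour Agilent arrays. The deposited table holds 1 log2 intensity per probe and array, as read from its values; for the scanner, background correction and normalization, the sources used here give nothing, and scanner files were not used. The number of arrays limits the precision.

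Groups came from the labels. The 43714 probes were averaged to 21903 transcripts by the identifier before its suffix, and 61 control rows were left out. The authors' log2 values were used without further normalization. Members and lists were chosen with earlier results of these data known. Contrasts whose sign the choice did not fix were tested in R 4.3.3 with limma 3.58.1 (lmFit, eBayes, a coefficient per group). The tests ran on all transcripts, two-sided, with Benjamini-Hochberg adjustment and a threshold of 0.05. They use arrays that also entered the choice, so the members' p-values are not independent of it. On simulated data, 67, 67 and 66 brighter transcripts were changed 1.5-fold, 2-fold and 4-fold, with independent errors. The 1.5-fold changes were recovered in 68.7%, 50.7% and 34.3% between high and low nickel, chromium and cobalt. For nickel minus chromium the shares were 40.3% at the high concentrations and 67.2% on the mean. The adjusted threshold is less strict with more calls, and simulated nickel gave 186 calls against 0 in the measured data. The nickel share is therefore too high a guide to what the measured comparison could find. Intervals are 95% limma intervals within a metal.

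Named transcripts are the 2 highest and 2 lowest by mean nickel and chromium difference, and in each tested comparison up to 2 per sign with the smallest adjusted p. Others are named as chosen later. The gene tables matched 0 members, so gene lists and cell type markers were not run.

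Pairing was checked by correlating deviations from group means. Same-numbered arrays correlated between -0.17 and 0.28 within metals, so the numbers were not used. The titles pair the shared control pools, whose 4 pairs correlated between 0.59 and 0.73. Alternatives were other normalizations, probe summaries, filters, priors, array weights, blocks, limits and leaving out each array. Slide and scan date are not given in the labels or the table, so they were not run as blocks.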

Additional observations from a re-analysis of the deposited data

Results flagged for a closer look

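The sizes of the nickel and chromium effects differed in limma for 8 members at the high concentrations and 11 on the mean of 3, all with a positive value. Of all transcripts, 3.26% and 3.87% passed with a positive value. The test is built from the differences that chose the members, so nothing is read from these counts. The 2 with the smallest adjusted p were ENSDART00000083947, with 1.79 and 1.71, and ENSDART00000098274, with 1.06 and 1.12 (log2, nickel minus chromium).

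Single arrays were also compared with the other 3 of their group, in 96 groups, counting the 6 named transcripts and the median difference of the raised and of the lowered members. Chance gives a distant array in about 1 in 20 groups, and 7 were found. ENSDART00000056494 read 6.26 on high-chromium replicate 3 against 4.84 to 5.00 on the others, 6.70 on high-nickel replicate 4 against 7.86 to 7.99, and 6.72 on mid-cobalt replicate 2 against 7.81 to 7.92. ENSDART00000040844 read 7.31 on high-chromium replicate 1 against 7.72 to 7.76, and 5.90 on mid-cobalt replicate 1 against 5.57 to 5.63. ENSDART00000098274 read 14.67 on high-cobalt replicate 4 against 14.31 to 14.34. The median difference of the 7 raised members was 0.90 on mid-chromium replicate 3 against 0.66 to 0.68.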

How the results depend on the processing

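The number of transcripts chosen, 20 as reported, followed the limits. A limit of 0.4 or 0.6 for the nickel and chromium shift gave 43 and 9, and a cobalt limit of 0.2 or 0.4 gave 9 and 47. It was 17 to 26 when each array was left out. The probe with the highest mean gave 23, with 12 of the reported members, and all 8 shared controls gave 25, with 17. Between high and low chromium the count of 1 became 0 with the replicate block and with a slope on concentration, and 0 to 2 without each array. Between high and low cobalt 0 became 1 with the replicate block, ENSDART00000010148 at -0.44 (limma adjusted p = 0.0379), and 0 to 1 without each array. ENSDART00000103748 kept its chromium difference of 0.61 with the replicate block but not the call (limma adjusted p = 0.0543). For nickel minus chromium, spike-in scaling within each metal gave 5 in place of 8 at the high concentrations, and leaving out each array gave 7 to 9, and 8 to 12 on the mean. The shared controls gave 2 in place of 0 with the pool as replicate block. The replicate block changed no other call of a named transcript. Of 154 values of named transcripts under these alternatives, 148 kept direction and call, and the other 6 belong to ENSDART00000103748. No member count or named value of these tests changed direction, but scaling across array sets turned the cobalt control level of the lowered members from lower in 13 to lower in 0. The cause of these changes was not tested. Limits are 4 arrays per group, unknown pooling and normalization, probes near background and unequal concentrations between metals. Further limits are control pools shared by nickel and chromium, and array sets that differ between cobalt and the other metals.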

Other observations

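Variation of the 20 members between arrays of the same group was set against that of all transcripts. Over the 48 arrays, deviations from group means gave 190 correlations between members, with a median r of 0.02 and a range of -0.44 to 0.45. The median was 0.08 for pairs moved in the same direction and -0.09 for pairs moved in opposite directions. Pairs among all 9416 transcripts had a median of -0.001, with 95% between -0.369 and 0.379. The points share arrays and pools, and the values are a description without a test.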
